A study of Mus musculus with 16 samples.

Results

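The clustered protocadherin genes were taken as all protein-coding genes of mouse chromosome 18 whose symbols begin with Pcdha, Pcdhb or Pcdhg in GENCODE vM21 on mm10. They numbered 57 of the 21670 protein-coding genes annotated on the autosomes and the X chromosome. The alpha cluster held 14 genes, the beta cluster 22 and the gamma cluster 21, all on the plus strand. Their starts and first exons spanned chr18:36930285-37146530 for alpha, chr18:37264938-37524479 for beta and chr18:37661793-37822134 for gamma. An alpha pair carries the same symbol in this annotation, and these genes are named here by their transcripts, Pcdha11-201 and Pcdha11-202.

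Protocadherins of these clusters are cell adhesion proteins best known from the nervous system, where each neuron uses its own combination of them. Every gene has its own promoter and a large variable first exon that encodes the extracellular and transmembrane parts. Variable exons of the alpha and gamma clusters are spliced to constant exons shared by the whole cluster, whereas beta genes have none. The C-type genes Pcdhac1, Pcdhac2, Pcdhgc3, Pcdhgc4 and Pcdhgc5 lie at the ends of the alpha and gamma clusters, and the other genes of those clusters are called alternate genes. DNA methylation of these promoters, the insulator protein CTCF and distant enhancers are known to take part in promoter choice in neurons.

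The data were 16 whole-genome bisulphite sequencing (WGBS) libraries from spleens of C57BL/6J mice aged 6 to 8 weeks. CD43- resting B cells and CD4+ CD62L+ naive T cells were isolated with magnetic kits from pooled males and pooled females. Each cell type had 8 libraries, made of 2 for each combination of sex and assay. The assays were standard bisulphite sequencing (BS), which reads 5-methylcytosine and 5-hydroxymethylcytosine together, and oxidative bisulphite sequencing (oxBS), which reads 5-methylcytosine alone. No group carried a transgene or received an agent, and all groups shared the strain. The labels number the libraries without naming mice, and by the protocol part of each adapter-ligated DNA sample was oxidised. A BS and an oxBS library may therefore come from the same DNA, and the labels do not tie them. The p-values over all libraries treat them as independent, measure a spread that may be technical and may be too small, and the differences within each assay are given beside the main ones.

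Libraries held between 123693203 and 171130063 calls, a call being the state of one CpG in one read. Genome-wide methylation was 80.5% ± 0.642 in B and 79.2% ± 0.490 in T cell libraries (SD, n = 8). Promoters of all 6 B cell marker genes were lower in B cells and those of all 7 T cell markers lower in T cells, in the test described below. Cd8a and Cd8b1, markers of cytotoxic T cells, and Itgam, a myeloid marker, were lower in T cells too, Lyz2 (17.8% in B, 28.2% in T cells), Csf1r and Ncr1 were not called, and Hba-a1 was not tested. One library, B male oxBS replicate 2, stood apart at the 10065 promoters with a mean level of 5% or less, where it averaged 2.19% against 1.08 to 1.56% in the other B cell libraries and 0.944 to 1.28% in T cells.

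For each gene, calls were pooled over 500 bp on either side of the transcription start (the promoter window) and over the first exon. The methylation level is the methylated share of these calls in a library. All 57 members passed the filter of at least 4 CpGs and 20 calls in at least 5 libraries of each cell type, as did 19895 genes in all at promoters and 16339 at first exons. Member promoters held between 6 and 68 CpGs and a median of 257 calls per library, and member first exons between 57 and 154 CpGs and a median of 856 calls. Because members resemble each other in sequence, reads could in principle be placed on the wrong copy. The median depth was 8.67 calls per CpG at member promoters and 8.39 over all promoters tested, and no CpG of a member window held more than 28 calls in any library. Reads exchanged between members would leave these depths unchanged, so the placement of reads was not tested.

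Most promoters of the clustered protocadherins were neither unmethylated nor fully methylated in B and T cells. Over the 16 libraries, 53 of 57 member promoters had mean levels between 20 and 80%, 4 lay at 20% or less and 0 at 80% or more. Pcdhgc3 and Pcdhgc4, at 0.515 and 0.959%, were almost unmethylated, and Pcdhgc5 stood at 85.4% in B cells taken alone. Bulk libraries average over cells and alleles, so a level near 50% cannot tell partial methylation of every copy from a mixture of methylated and unmethylated copies. First exons were more methylated than promoters in 56 of 57 members, the exception being Pcdhga12 (65.2% against 70.0%). Of the first exons, 53 lay between 20 and 80%, 3 at 80% or more and 1 at 20% or less. Promoter windows overlap the start of the same gene's first exon, and in 3 cases (Pcdhb18, Pcdhb20 and Pcdhb22) they also overlap the first exon of a neighbouring member.

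**Figure D1:**
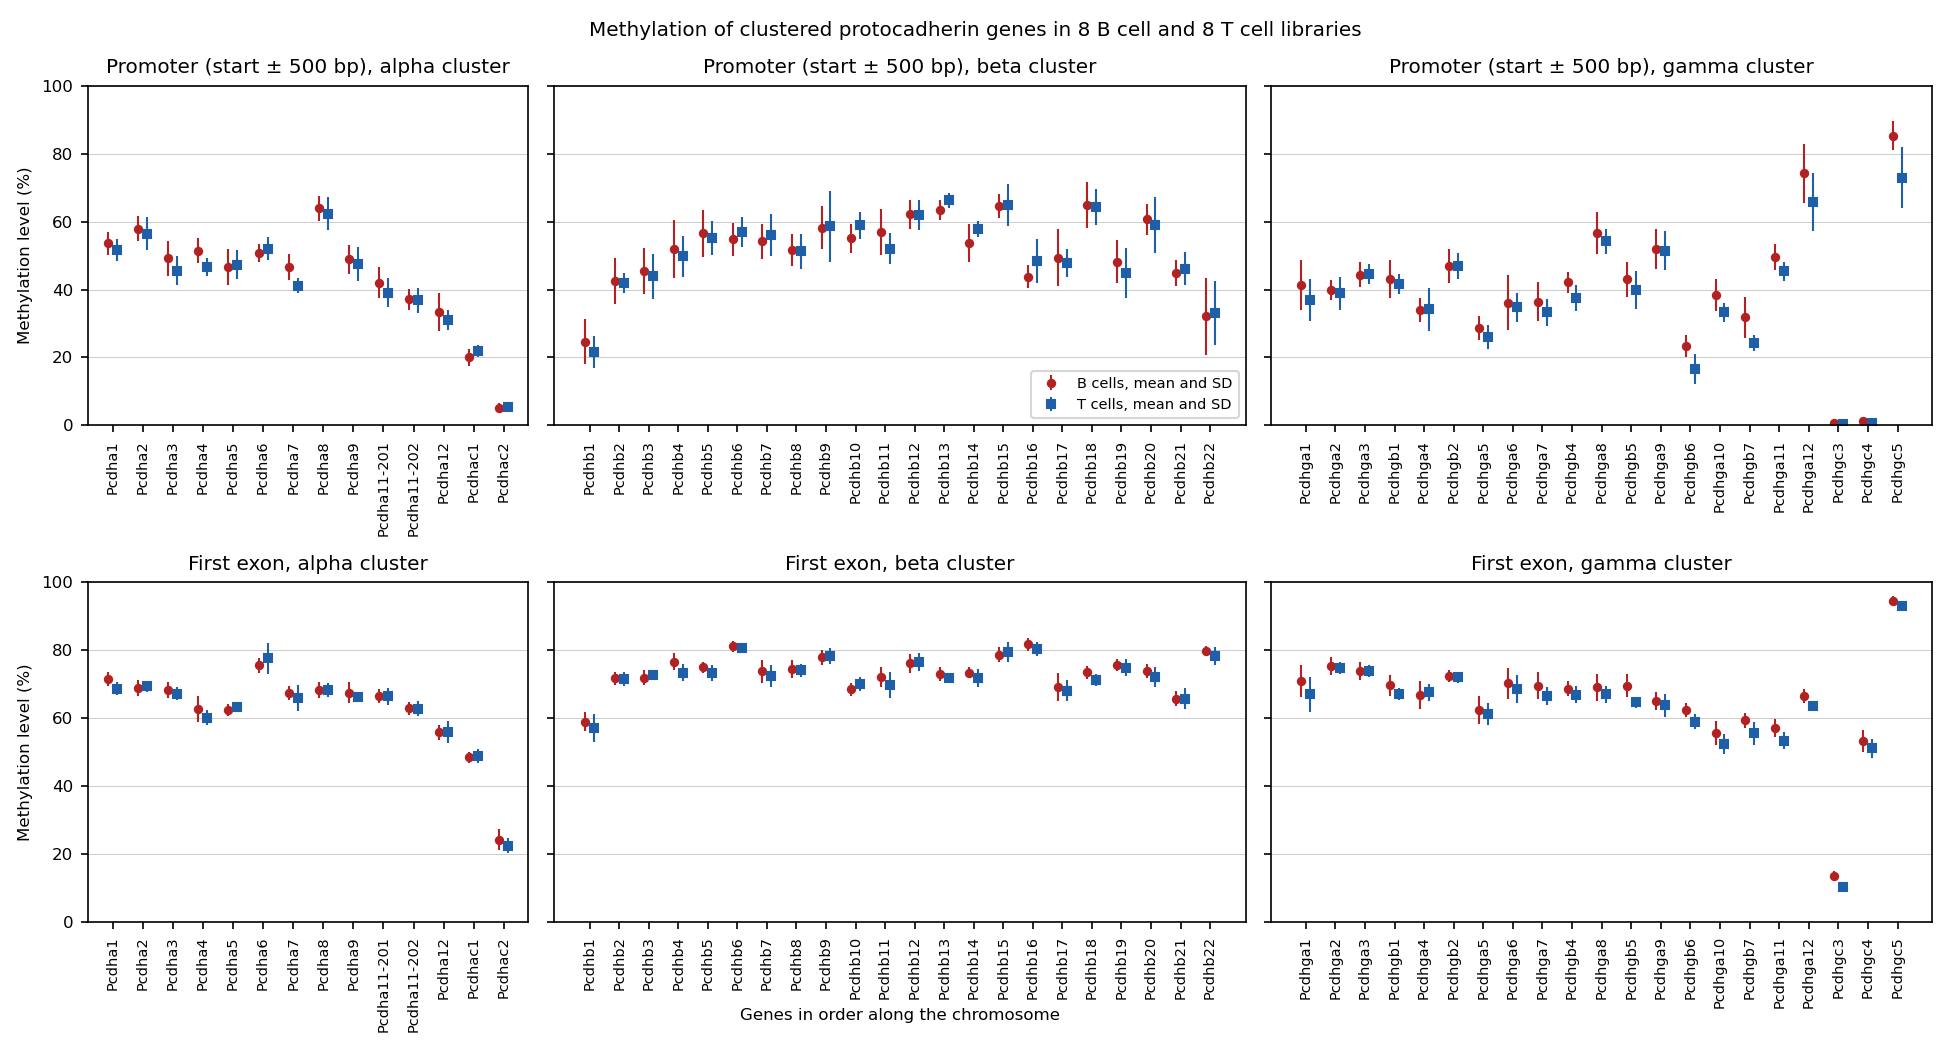
Methylation level (y axis, %) of each of the 57 genes, in order along the chromosome, at promoters (top) and first exons (bottom), with points for the mean and bars for the SD of 8 B cell libraries (red) and 8 T cell libraries (blue). Most promoters lie between 20 and 80%, first exons lie above them, and Pcdhac2, Pcdhgc3 and Pcdhgc4 stand at the bottom of the promoter panels.

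With windows of 500 bp on either side, the beta cluster was the most methylated of the 3 in both cell types. Its promoters also held fewer CpGs and calls, with medians of 15 CpGs and 118.5 calls per library. The medians were 36 and 289 in alpha and 33 and 292 in gamma. The clusters were not matched for CpG number or depth. The order of the clusters depended on the window. Over the 500 bp upstream alone alpha stood at 48.1% in B and 45.7% in T cells, above beta at 43.9 and 43.4%. With 250 bp on either side alpha was above beta in B cells (42.3 against 41.3%) and below it in T cells (40.9 against 41.9%). These smaller windows average only the genes that pass the filter of CpGs and calls in them, so the sets of genes may differ. Averaged over its genes, the alpha cluster had a promoter level of 43.4% ± 1.16 (SD over 8 libraries) in B cells, against 41.8% ± 1.18 in T cells. The beta cluster had 52.0% ± 0.871 and 52.0% ± 0.852, and the gamma cluster 40.5% ± 0.946 and 37.1% ± 1.46. Beta promoters were above alpha promoters in 16 of 16 libraries, by 9.40 points on average, and above gamma promoters in 16 of 16, by 13.2 points. Alpha promoters were above gamma promoters in 15 of 16 libraries, by 3.77 points with an SD of 2.15. These means include the C-type genes. Alternate alpha promoters averaged 48.5 and 46.5% and alternate gamma promoters 42.4 and 39.2%, which left beta 4.49 points above alternate alpha and 11.2 points above alternate gamma, still in 16 of 16 libraries. At first exons the levels in B and T cells were 62.2 and 61.7% for alpha, 73.8 and 72.9% for beta and 65.1 and 62.9% for gamma. Beta was again highest in 16 of 16 libraries, whereas alpha exceeded gamma in 1 of 16. First exons differed in length, from 2346 to 3028 bp in alpha, 2588 to 8695 bp in beta and 2542 to 2961 bp in gamma. Over the part beyond 500 bp from the start, added after seeing the data, beta was closer to gamma. The levels there were 76.2 and 75.5% for beta and 74.8 and 72.8% for gamma in B and T cells. The part of exon length in the order was not tested. Among alternate genes alone, alpha and gamma first exons had no common order, at 66.5 and 66.95% in B cells but 66.0 and 64.7% in T cells, with alpha higher in 1 of 8 B and 7 of 8 T cell libraries. The distance from promoter to first exon was 19.4 points for alpha, 21.4 for beta and 25.2 for gamma, and it was positive in all 16 libraries for each cluster.

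**Figure D2:**
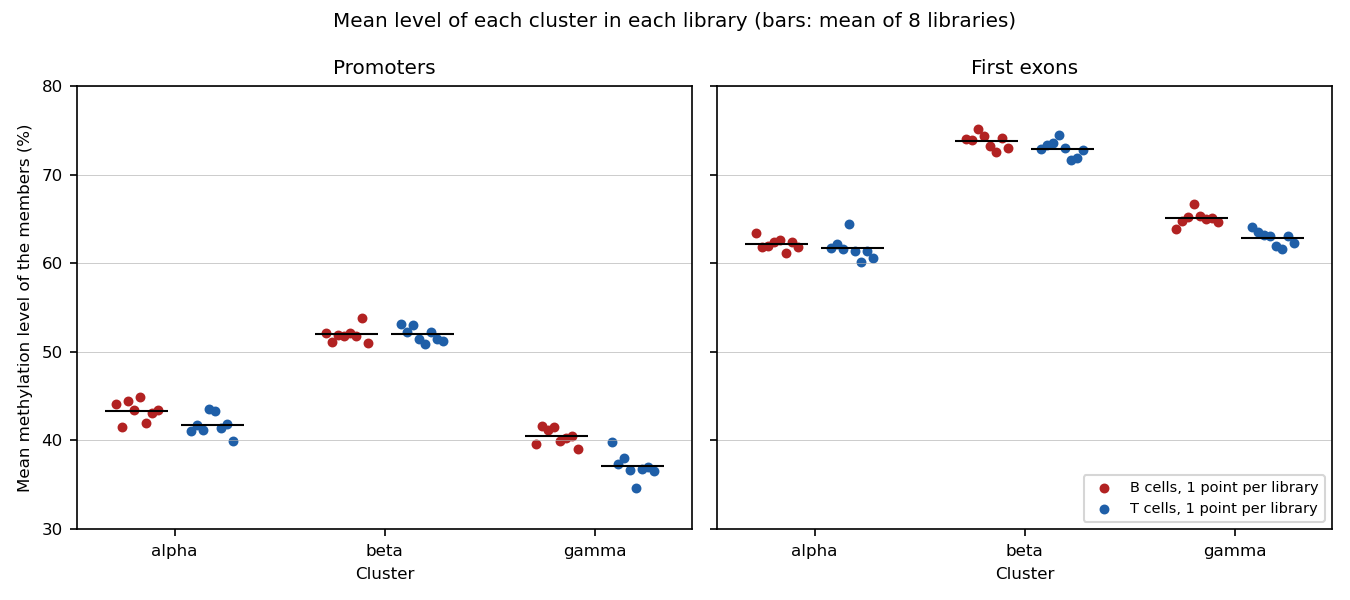
Mean methylation level of the members of each cluster (y axis, %) at promoters and first exons, with 1 point per library (B cells red, T cells blue) and a bar at the mean of 8 libraries; the y axis starts at 30%. Beta points lie above the others in both panels, and the B and T points separate most in the gamma cluster.

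Within the alpha cluster, promoter methylation fell along the chromosome, mainly over its later genes. Pcdha1 to Pcdha9 lay between 43.8 and 63.2% without a steady fall, and Pcdha11-201, Pcdha11-202 and Pcdha12 stood at 40.5, 37.0 and 32.2%. The highest promoters were Pcdha8, with levels from 60.6 to 69.2% in B cells (median 62.0%) and from 54.4 to 69.7% in T cells (median 62.7%), and Pcdha2, with means of 58.0 and 56.5%. The last alternate gene, Pcdha12, averaged 33.4% ± 5.71 in B cells, against 31.0% ± 2.89 in T cells. Across the 14 alpha genes the level and the order along the cluster gave a Pearson r of -0.770 and a Spearman rho of -0.789. Without the C-type genes the values were -0.622 and -0.664 over 12 genes. Genes share the libraries and are not independent replicates, so these correlations describe the cluster only. Alpha first exons ranged from 23.3% at Pcdhac2 to 76.6% at Pcdha6.

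Beta promoters ranged from 23.1% at Pcdhb1, the member nearest to the alpha cluster, to 64.9% at Pcdhb13, and the SD over the 22 genes was 10.4 points, against 15.0 in alpha and 18.4 in gamma. Without the C-type genes the SD was 8.49 points in alpha and 11.4 in gamma. Next to Pcdhb1, the lowest was Pcdhb22 at 32.6%, and next to Pcdhb13, the highest was Pcdhb15 at 64.7%. Pcdhb22 had only 6 CpGs and 17 to 45 calls per library, and 2 of its library values did not reach the call minimum. Pcdhb1 also had the lowest first exon of the cluster (58.0%), and Pcdhb16 the highest (81.0%). Level and order along the cluster gave an r of 0.183 and a rho of 0.168 at the 22 beta promoters.

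Gamma promoters had the widest range, from 0.515% at Pcdhgc3 to 79.2% at Pcdhgc5. Among alternate gamma genes the level ran from 19.99% at Pcdhgb6 to 70.0% at Pcdhga12, whose window held 12 CpGs, the fewest of the cluster. Against order along the cluster, the 18 alternate gamma genes gave an r of 0.194 and a rho of 0.150 for promoter level, and an r of -0.762 and a rho of -0.794 for first exon level. The first of these exons, Pcdhga1 to Pcdhga3, averaged 69.0, 75.2 and 73.9%, and those of Pcdhga10, Pcdhgb7 and Pcdhga11 near the other end 54.0, 57.5 and 55.3%, but the last alternate gene, Pcdhga12, had 65.2%.

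The C-type genes departed from the alternate genes and from each other. Pcdhgc3 and Pcdhgc4 were almost unmethylated at the promoter, with B cell libraries from 0.20 to 0.980% (median 0.629%) and T cell libraries from 0.138 to 0.565% (median 0.414%) for Pcdhgc3. Pcdhgc4 ranged from 0.460 to 1.87% in B cells (median 1.23%) and from 0.416 to 1.30% in T cells (median 0.612%). Both ranges overlapped between the cell types, and B cell libraries were also higher at all promoters of 5% or less (1.44% against 1.10%); the part of this shift in these low values was not tested. Pcdhac2 averaged 5.13% ± 1.57 in B cells, against 5.34% ± 1.09 in T cells. Pcdhac1 was higher, at 20.1% ± 2.46 and 21.9% ± 1.78. Pcdhgc5 was the most methylated promoter of all members, at 85.4% ± 4.24 in B cells, against 73.0% ± 9.04 in T cells.

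The first exons of the C-type genes showed how far each low region reached. At Pcdhgc3 the first exon averaged 13.6% in B cells and 10.3% in T cells, and the level was 16.3 and 17.2% between 1750 and 1999 bp from the start and 56.6 and 45.6% between 2250 and 2499 bp. At Pcdhac2 it was 9.38 and 10.6% between 1000 and 1249 bp and 78.1 and 72.6% between 1500 and 1749 bp. At Pcdhgc4 the rise was steeper, from 16.2 and 10.7% between 750 and 1000 bp to 76.7 and 76.8% in the next 250 bp. Pcdhgc5 had first exon levels of 94.7% ± 1.40 and 93.2% ± 1.26. In the 250 bp before its start it stood at 72.9% ± 6.94 in B cells and 54.1% ± 11.3 in T cells. Pcdhac1 had 48.4 and 48.9% over the first exon.

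Around the starts of the other genes, methylation dipped in every cluster, but with different shapes. In beta genes the level in B cells fell from 75.4% in the bin between 500 and 251 bp upstream to 27.8% ± 3.28 in the 250 bp just before the start, then rose to 52.1% in the next bin and to 75.2% beyond 500 bp. Alternate gamma genes had a like minimum of 29.2% ± 1.81 in B cells (27.5% ± 2.51 in T cells), with a slower rise through 36.0, 45.0 and 64.1% in B cells. In alternate alpha genes the B cell level stayed at 47.2, 47.7, 46.4 and 48.4% in the 4 bins from 250 bp before to 749 bp after the start, and reached 73.9% in the bin after that. Each bin averages the genes with at least 2 CpGs in it, so neighbouring bins can rest on different genes. The bin between 500 and 251 bp upstream rests on 4 of 12 alternate alpha, 16 of 22 beta and 14 of 18 alternate gamma genes. The 250 bp before the start rest on all 12 alternate alpha, 20 beta and 17 of 18 alternate gamma genes.

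**Figure D3:**
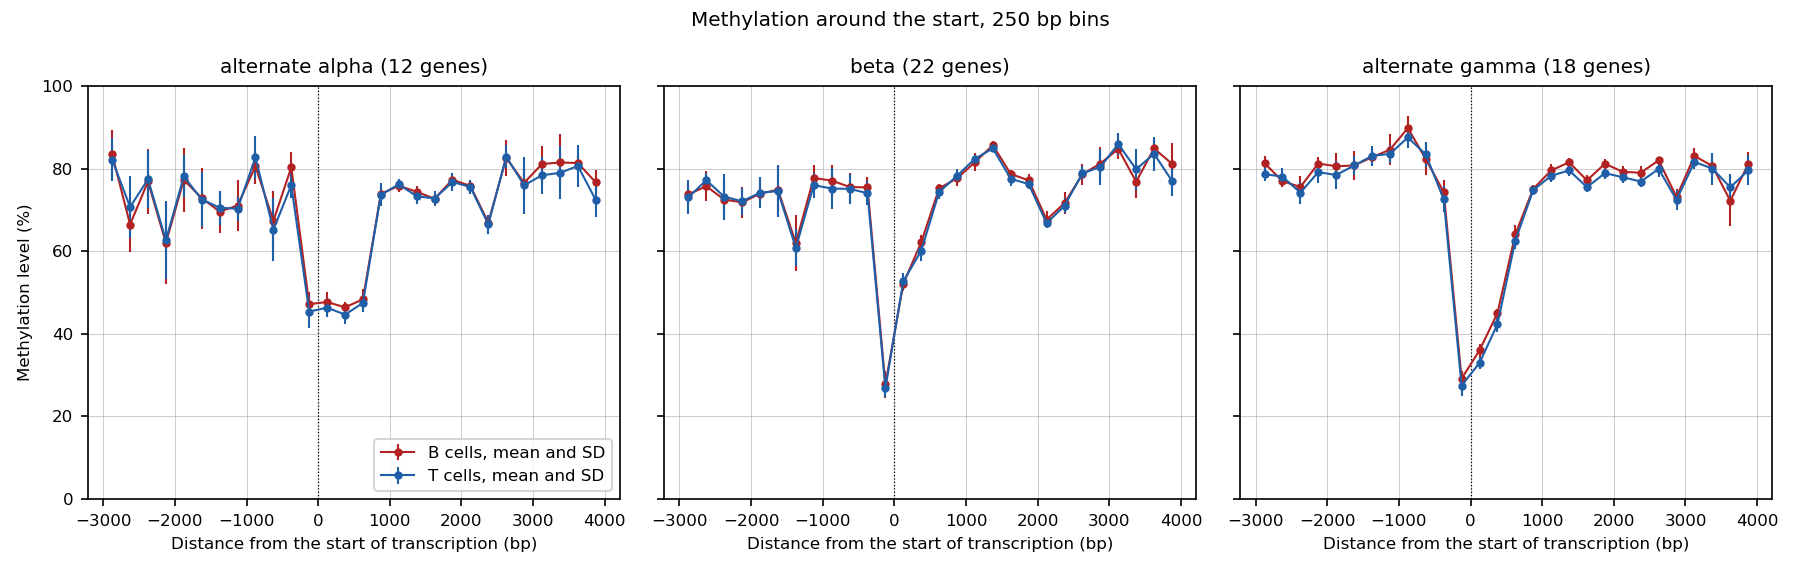
Mean methylation level (y axis, %) in 250 bp bins by distance from the transcription start (x axis, bp; negative is upstream) for the 12 alternate alpha, 22 beta and 18 alternate gamma genes, with bars for the SD over 8 B cell (red) and 8 T cell (blue) libraries; a bin averages the genes with at least 2 CpGs in it, as few as 2 alpha genes upstream. Beta and gamma genes reach their minimum just before the start, whereas alpha genes hold a plateau of 44.7 to 48.4% as far as 749 bp.

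Intermediate levels were also seen at single CpGs. Of 1583 CpGs in member promoters with at least 20 calls over all libraries, 65.8% had a level between 20 and 80%. The share was 83.3% in alternate alpha, 60.2% in beta and 77.1% in alternate gamma promoters. In the 2528 other promoters whose window averaged between 20 and 80%, 49.1% of CpGs were in this range, and in all promoters tested 6.04%. At Pcdhgc3 and Pcdhgc4 every one of the 68 and 42 CpGs was at 20% or less.

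Member promoters were set beside those of other genes by the number of CpGs in the window. Of the 21 member promoters with 30 to 39 CpGs, 21 lay between 20 and 80%, with a median of 44.5%. Of 1290 other promoters with as many CpGs, 244 (18.9%) did, and their median was 10.0%. With 10 to 19 CpGs, 18 of 18 members were in this range with a median of 55.5%, against 30.1% of 2965 others with a median of 85.6%. With 20 to 29 CpGs the medians were close, at 42.4% for members and 44.8% for 1581 others, but 8 of 8 members lay between 20 and 80%, whereas 29.2% of the others did, with 565 at 80% or more and 554 at 20% or less. The 2 members with 4 to 9 CpGs had a median of 45.5%, against 86.4% in the others. With 40 to 49 CpGs, 4 of 6 members were intermediate, the exceptions being Pcdhgc4 and Pcdhgb6, against 6.14% of others, and the medians were 24.5 and 4.01%. Members with 50 or more CpGs were Pcdhac2 and Pcdhgc3, both low like 98.4% of other such promoters. These shares are descriptions, as neighbouring members of a cluster are not independent.

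**Figure D4:**
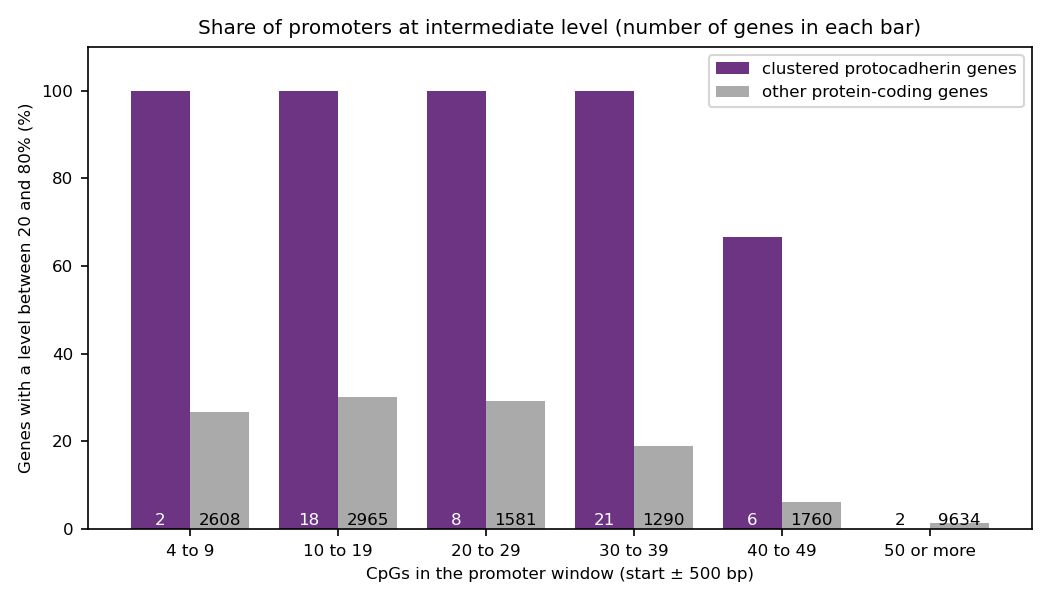
Share of promoters with a mean level between 20 and 80% (y axis, %) by number of CpGs in the window (x axis) for clustered protocadherin genes (purple) and other protein-coding genes (grey), with the number of genes at the foot of each bar. Every member with up to 39 CpGs was in this range, against 18.9 to 30.1% of other genes, and no member with 50 or more.

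Other genes of the family and the neighbourhood were measured alongside. The 12 non-clustered protocadherins, which lie outside the clusters, had a median promoter level of 13.2% (range 0.727 to 80.8%), against 47.0% over the clustered genes. Pcdh12 and Pcdh15, at 51.1 and 54.1%, were intermediate too, and Pcdh11x and Pcdh19, at 18.1 and 19.7%, are X-linked and were called between the sexes. Among genes beside the clusters, the ubiquitously expressed Zmat2, Taf7 and Diaph1 had promoter means of 3.44, 3.73 and 1.89% in B cells and 2.75, 2.02 and 1.09% in T cells. Slc25a2, a mitochondrial carrier gene between the beta and gamma clusters, had 95.7 and 95.4%. None of these 4 was called between the cell types. Outside promoters and first exons, the median level of 1000 bp tiles in B and T cells was 82.0 and 82.3% across alpha, 79.8 and 78.8% across beta and 89.9 and 89.4% across gamma.

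B and T cells were compared by a quasi-binomial logistic model of methylated and unmethylated calls that also held terms for sex and assay. Its F test was fitted for all genes, and p-values were adjusted by the Benjamini-Hochberg method, with calls at an adjusted p under 0.05. At promoters, 1546 of 19895 genes were called (7.77%), of which 970 (4.88% of genes) were higher in B cells, the other 576 (2.9%) being higher in T cells. Of the 57 members, 3 were called (5.26%), all higher in B cells, namely the gamma genes Pcdhgb6, Pcdhgb7 and Pcdhgc5. The exact permutation test with Benjamini-Hochberg adjustment, run on the 19209 promoters with a level in every library, called 8.23% of them (5.2% higher in B cells, 3.04% in T cells). It also called 3 members, of 56 tested, and 2 of these were shared. It left out Pcdhgb6 and took in the alpha gene Pcdha7, which ranged from 40.8 to 53.8% in B cells (median 46.8%) and from 37.6 to 44.8% in T cells (median 41.6%). The Pcdha7 ranges overlapped, and its difference of 5.36 points (SE 1.56) had an adjusted p of 0.0408 by exact permutation and 0.0694 in the quasi-binomial test. In either test the members' share, all of it higher in B cells, was near that of all promoters in that direction. At unadjusted p under 0.05 there were 9 members, against 23.8% of all genes. No member promoter had library levels that did not overlap between B and T cells, as 2.91% of all promoters had.

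Pcdhgc5 showed the largest difference. Its promoter (start at 37819513, 16 CpGs, 93 to 186 calls per library) ranged from 77.3 to 92.1% in B cells with a median of 86.1%, and from 59.1 to 82.5% in T cells with a median of 74.3%. Of the B cell libraries 6 of 8 lay above the T cell range, and the overlap came from 3 female T cell libraries above the lowest B cell library. The difference was 12.4 points (SE 3.53), with an adjusted p of 0.0119 in the quasi-binomial test fitted across all genes and 0.0352 by exact permutation. It was 17.6 points in males and 7.13 points in females, and the interaction of cell type and sex had an unadjusted p of 0.173 in the quasi-binomial model across all genes, so the size was not shown to differ between the sexes. Within BS and oxBS libraries the difference was 9.78 and 15.0 points, and over the 500 bp upstream of the start alone it was 22.3 points. That upstream window was added after seeing the data. Of the 16 CpGs, only 6 lay in the 250 bp before the start.

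Pcdhgb6 and Pcdhgb7 are alternate genes of the gamma B subfamily. Pcdhgb6 (start at 37742094, 40 CpGs) ranged from 17.7 to 27.9% in B cells (median 22.9%) and from 9.43 to 24.8% in T cells (median 16.1%). The ranges overlapped, with 1 female BS library of T cells above 5 of the 8 B cell libraries. The difference was 6.79 points (SE 1.93), with an adjusted p of 0.0138 in the quasi-binomial test across all genes but 0.0532 by exact permutation. It was 5.32 points in BS and 8.26 points in oxBS libraries, and 2.60 points with windows of 1000 bp on either side of the start. Pcdhgb7 (start at 37751600, 40 CpGs) ranged from 24.6 to 43.9% in B cells (median 32.2%) and from 20.5 to 28.8% in T cells (median 24.3%). Of the B cell libraries 6 of 8 lay above the T cell range, and the other 2, both male BS, lay within it. The highest value came from B male oxBS replicate 2, the library that stood apart at low promoters. The difference was 7.62 points (SE 2.28) with an adjusted p of 0.0350 in the same test across all genes and 0.0270 by exact permutation. It was 4.40 points in BS and 10.8 points in oxBS libraries. Without that library it was 5.91 points and the call held. Of the 16 fits that each left out 1 library, 9 others lost the call. Adjusted p in the quasi-binomial test lay between 0.0511 and 0.0734 in those 9 fits. None of the 3 differences was called within a single assay or a single sex, where each cell type had 4 libraries.

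At first exons, 555 of 16339 genes were called (3.4%), 343 of them (2.1% of genes) higher in B cells, the other 212 (1.3%) being higher in T cells. One member was called, Pcdhgc3, again higher in B cells. Its first exon (37806410 to 37808977, 149 CpGs, 1010 to 1683 calls per library) ranged from 10.9 to 15.3% in B cells with a median of 13.9%, and from 8.58 to 12.9% in T cells with a median of 10.3%. Of the B cell libraries 6 of 8 lay above the T cell range. The difference was 3.31 points (SE 0.683), with an adjusted p of 0.0216 in the quasi-binomial test across all genes and 0.0394 by exact permutation, which called 2.58% of 14977 first exons (1.44% higher in B cells, 1.14% in T cells). It was 2.27 points in BS and 4.34 points in oxBS libraries. The call was lost within either assay or sex, and without B female BS replicate 10 (adjusted p 0.0521) or B female oxBS replicate 9 (0.0507) in the quasi-binomial test. At unadjusted p under 0.05 there were 10 members (17.5%), against 18.6% of all genes. As at promoters, no member had library levels without overlap, which 1.51% of all first exons had.

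The gamma cluster as a whole leaned towards higher methylation in B cells by a few points. At promoters 19 of 21 gamma genes had a higher mean in B cells, with a median difference of 2.67 points. At first exons it was also 19 of 21, with a median of 2.21 points. Over all genes tested, 67.5% of promoters and 63.4% of first exons were higher in B cells, with median differences of 0.267 and 0.160 points, and the genome-wide level was higher in B cells as well, while the 2528 other promoters between 20 and 80% averaged 53.0% in B cells and 53.1% in T cells. Averaged over its genes, gamma was above the highest T cell library in 6 of 8 B cell libraries at promoters and 7 of 8 at first exons. The alpha cluster had 10 of 14 promoters higher in B cells with a median of 1.53 points, and the beta cluster 12 of 22 with a median of 0.276 points. At first exons the counts were 9 of 14 for alpha (median 0.0697 points) and 16 of 22 for beta (median 1.17 points). No p is given for these counts, since the genes share libraries.

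The last exon of the gamma cluster changed in the opposite direction. This constant exon (37839903 to 37841873, 39 CpGs, 160 to 355 calls per library), shared by the gamma transcripts and holding their 3′ end, was measured after the other regions and its test was added once its values had been seen. It ranged from 62.1 to 77.4% in B cells (median 67.8%) and from 79.0 to 89.8% in T cells (median 83.6%). Every T cell library lay above every B cell library. The means were 69.0% ± 5.29 and 83.7% ± 3.35, and B minus T was -14.8 points. In the quasi-binomial test fitted over 15949 distinct last exons the adjusted p was 0.000154, and the exact permutation p of 0.0001554 was the smallest it can give. Of these last exons, 13.1% were called, made up of 4.82% higher in T cells and 8.25% higher in B cells, and 6.22% had library levels that did not overlap. The difference was -11.4 points in BS and -18.1 points in oxBS libraries, -15.2 points in males and -14.3 points in females. With 4 libraries per cell type, adjusted p was 0.0777 in BS libraries and 0.157 in males by the same test across all genes. Transcripts of Gm42416 and Gm38182 also overlap part of this exon. The last exon of the alpha cluster (37184946 to 37187657, 35 CpGs) stood at 74.1% ± 3.64 in B cells, against 71.9% ± 4.84 in T cells, a difference of 2.19 points with an adjusted p of 0.613 in that test across all genes. It was 5.17 points in BS but -0.80 points in oxBS libraries, and 0.586 points without T female BS replicate 15. The short constant exon of gamma nearest to the variable exons (37825021 to 37825079, 5 CpGs) was low, at 3.72% ± 3.56 in B cells and 1.48% ± 1.96 in T cells (n = 7 each), resting on a median of only 32 calls.

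**Figure D5:**
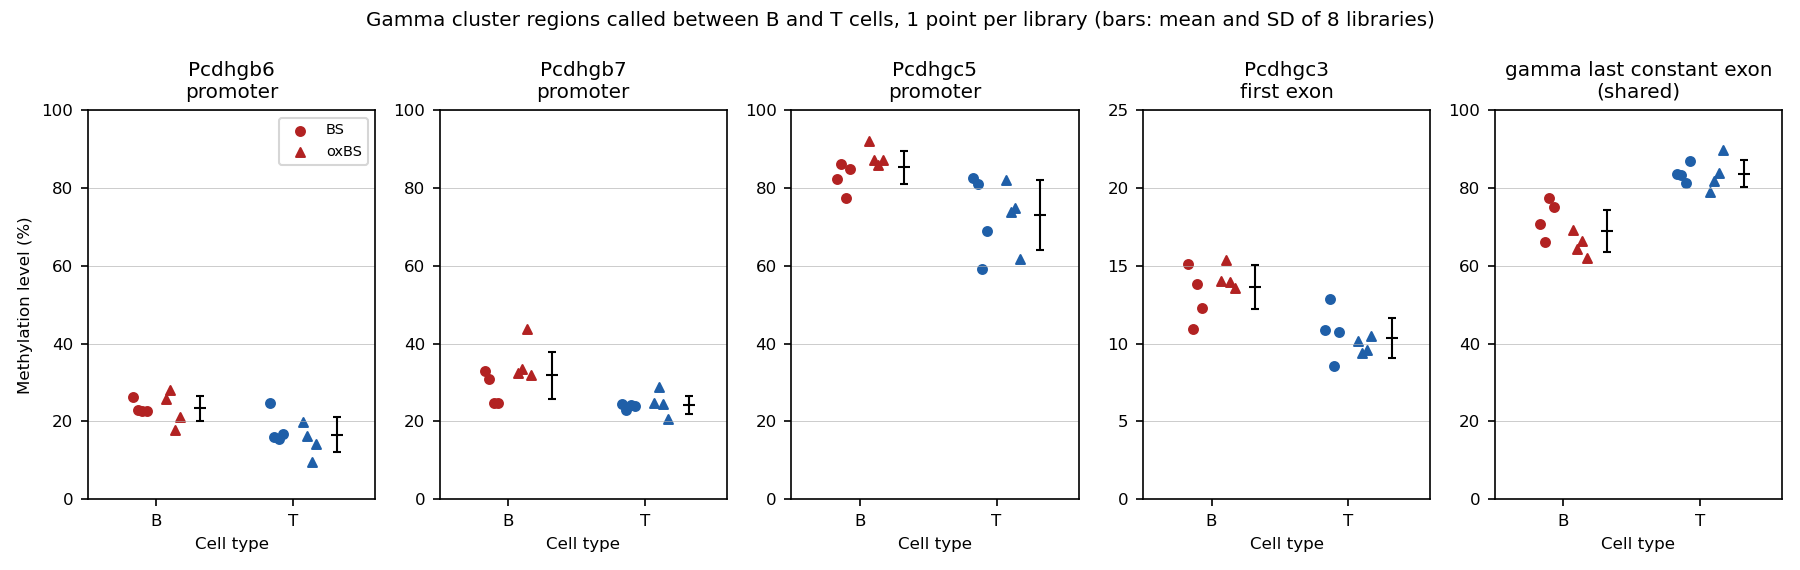
Methylation level (y axis, %) of the 4 gamma gene regions called between B and T cells and of the shared last exon, with 1 point per library (circles BS, triangles oxBS) and bars for the mean and SD of 8 libraries; the Pcdhgc3 panel is drawn to 25% and the others to 100%. The 4 gene regions are higher in B cells with overlapping points, and the last exon is higher in T cells with none.

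No member was called between assays or between sexes. Between BS and oxBS, 0 of 57 promoters and 0 of 57 first exons were called by the quasi-binomial test, as were 0 of all genes. At unadjusted p under 0.05 there were 1 member promoter (Pcdhb5) and 0 first exons, against 6.26% and 7.88% of all genes. Between females and males 2.5% of promoters were called, 478 of these 498 on the X chromosome, and 2.71% of first exons, but 0 members in either region. Unadjusted p was under 0.05 for 4 member promoters and 4 first exons (7.02% each), against 7.53% and 10.0% of all genes. Among them were Pcdhgc5 and Pcdhgb6, 8.37 and 4.93 points higher in females with adjusted p of 0.156 and 0.158 in the quasi-binomial test across all genes. The interaction of cell type and sex called 0.00503% of promoters and 0 first exons, and no member; 2 member promoters and 3 first exons had an unadjusted p under 0.05, against 3.96% and 3.74% of all genes. Exact permutation was not run for these terms.

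The spread between libraries was compared with that of other genes whose mean level over all 16 libraries lay in the same range. Such genes need not have a like level within a cell type. Cd3e, for one, averaged 45.3% but stood at 88.9% in B and 1.73% in T cells, with SDs of 2.32 and 0.668 points. The part of such genes in the medians below was not tested. The SD over 8 libraries of a cell type had a median over member promoters of 4.72 points in B and 4.35 in T cells. Sampling of independent calls alone would give 3.22 and 3.03 points. Neighbouring CpGs can share a read, so calls are not fully independent, and sampling of reads can spread levels more widely. How much of the excess this makes was not tested. Over the 53 member promoters between 20 and 80% the medians were 4.87 and 4.35 points, with a median of 230.5 calls. For 1440 other autosomal promoters in this range with at least 95.3 calls, they were 4.97 and 4.75 points, with 182.5 calls and a larger sampling SD of 3.56 and 3.29 points. At the 53 member first exons in this range the medians were 2.34 and 2.46 points with 871.5 calls, against 3.81 and 3.39 points with 1020.5 calls in 118 other autosomal first exons with at least 642.2 calls. The dispersion of the model is 1 where only sampling of independent calls acts. It had a median of 1.86 over the 53 member promoters and 2.55 over the 53 member first exons in this range. In these other autosomal genes it was 2.15 and 7.10. The 3 promoters with the largest SD were Pcdhb22 (11.5 points in B cells), Pcdhb9 (10.5 points in T cells) and Pcdhgc5 (9.04 points in T cells). Pcdhb22 and Pcdhb9 had 6 CpGs each. Among first exons, Pcdha6 had the highest dispersion, 9.69, with T cell libraries from 72.6 to 85.4%.

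Short motifs were searched on both strands from 250 bp before to 50 bp after the starts. The core of the CTCF motif, CCNNNAGNNGGC, was found in 4 of 57 member windows (7.02%; Pcdha4, Pcdhac1, Pcdhb1 and Pcdhb15), and in 9.94% of all protein-coding genes. The letters CGCT are the core of a conserved sequence element of many, but not all, of these promoters. They were found in 55 of 57 member windows (96.5%), all but Pcdhb22 and Pcdhga12, and in 68.5% of all genes. Matches describe the sequence only. Sites that differ from these letters or lie outside the window were missed. A window without a match may therefore still hold a CTCF site. A string as short as CGCT occurs often in any sequence, so a match does not show that the whole element is present. The share over all genes was not matched for CpG content. Chromatin factor genes tied to these clusters, such as Ctcf, Rad21, Smchd1, Dnmt3b and Wiz, gave 0 calls among 15 promoters in the quasi-binomial test. Their median promoter level was 0.349%, and the highest was 83.2%, at Wiz. At first exons 0 of 13 were called, and of the non-clustered protocadherins 0 of 12 promoters and 1 of 11 first exons, Pcdh9, which was higher in B cells (91.1 against 88.4%) with an adjusted p of 0.0457 in the same test across all genes but 0.0505 by exact permutation. By exact permutation the promoters of Pcdh9 (adjusted p 0.0367) and of Dnmt1, the maintenance methyltransferase among the chromatin factors (3.26% in B, 1.26% in T cells, adjusted p 0.0421), were called.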

How the data were processed

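WGBS libraries were processed by the authors, who trimmed reads with Trim Galore 0.6.0, mapped them to mm10 (GRCm38) with Bismark 0.20.0 at default options and called methylation only where MAPQ was 10 or higher. SAMtools 1.3.1 is also named in the submitters' processing notes. What the authors deposited are raw counts of unmethylated and of methylated calls at every CpG, 1 file per library, with both strands combined and no normalization. Files hold between 123693203 and 171130063 calls per library.

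Calls at reference CpGs were pooled over windows of protein-coding genes (GENCODE vM21, 1 transcript per gene, chosen by APPRIS, CCDS and coding length). A window needed 4 CpGs and 20 calls in 5 libraries of each cell type. B and T cells were compared over 16 libraries by a quasi-binomial F test with sex and assay as covariates, dispersion not below 1 and Benjamini-Hochberg adjustment over all genes. The study did not distinguish the assays. Levels and spreads of clusters were described without tests. The exact permutation test used 8 against 8 libraries, for which the smallest p is 0.0001554. NumPy 2.4.6, SciPy 1.17.1, pandas 2.3.3 and Matplotlib 3.10.9 were used under Python 3.11.15. Last exons were tested likewise, each distinct exon once.

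The test was checked on simulated data with 200 changed genes at the real depths. For the comparison of B with T cells at 19895 promoters it recovered 14% of changes of 10 points and 68% of changes of 20 points, with 0 calls on unchanged genes. At 16339 first exons it recovered 24% and 78%, with 2 of 77 calls on unchanged genes. The simulation drew all libraries as independent and capped the dispersion below the highest values measured. It changed fewer genes than were called in the data, which makes the adjustment of p-values stricter. These shares therefore do not give the recovery or the false calls of the analysis itself.

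Members named were the C-type genes, the 2 highest and 2 lowest promoters and the highest and lowest first exon of each cluster, up to 6 called members with the largest difference per region and the 3 promoters with the largest SD. Others appear for their place in a cluster or were singled out after their values were seen. The members and gene lists were chosen with earlier results of these data known. Alternatives included call minimums, windows, transcripts, one assay or sex alone, no covariates, exact permutation and each library left out. Sequences of the locus are not printed here.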

Additional observations from a re-analysis of the deposited data

Results flagged for a closer look

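Of 80 groups of libraries examined for a library far from the others of its cell type (Dixon's criterion, over named members and cluster means), 5 held one, where chance gives about 1 group in 20. B male oxBS replicate 2 accounted for 2 of them. Its Pcdhgb7 promoter stood at 43.9% (285 calls), against 24.6 to 33.6% in the other B cell libraries, and its mean over beta promoters was 53.9%, against 51.0 to 52.1%. In T male oxBS replicate 6 the Pcdhac1 promoter stood at 17.7% (402 calls), against 21.4 to 23.1% in the other T cell libraries. In B male BS replicate 1 the Pcdhgc5 first exon stood at 91.4% (631 calls), against 94.0 to 95.6%. In T female oxBS replicate 16 the mean over alpha first exons was 64.4%, against 60.1 to 62.1%.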

How the results depend on the processing

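Member promoters held a median of 257 calls per library, and beta promoters 118.5. This may limit what could be called for single genes, but the effect of depth was not tested. The count of promoters called was 1546 in the analysis reported, 998 with windows of 250 bp, 2228 with windows of 1000 bp, 867 with the 500 bp upstream of the start alone (added after seeing the data), 132 and 145 within BS and oxBS, 88 and 116 within males and females, and 610 with a difference of at least 10 points. Leaving out 1 library at a time gave 1182 to 1691. The count of member promoters called, 3 as reported, was 1 with windows of 1000 bp on either side, 1 upstream alone, 1 with a difference of at least 10 points, and 0 within either assay or sex. Leaving out 1 library gave 2 to 6, with 6 without B female oxBS replicate 11. The count of first exons called, 555 as reported, was 146 beyond 500 bp from the start (added), 16 and 31 within BS and oxBS, 13 and 23 within males and females, 260 with a difference of at least 10 points and 2725 with no lower limit on the dispersion; leaving out 1 library gave 392 to 548. The member count of 1 became 4 with no lower limit and 0 within either assay or sex or with a difference of at least 10 points. It ranged from 0 (without B female BS replicate 10 or B female oxBS replicate 9) to 2 (without B male oxBS replicate 2, B male oxBS replicate 3 or T male oxBS replicate 6). Called members kept their direction in every alternative that gave a value. Pcdhgc5 kept its call except within one assay or sex, Pcdhgb6 and Pcdhgb7 also lost theirs with windows of 250 or 1000 bp and upstream alone, Pcdhgb6 without covariates, and Pcdhgb7 and the Pcdhgc3 first exon with the mean of CpG fractions. Pcdhgb7 also lost its call without any of B female BS replicates 10 and 12, B oxBS replicates 3 and 9, T female BS replicates 13 and 15, and T oxBS replicates 6, 8 and 14. The gamma last exon kept its direction too, and lost its call within BS and within males.

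Cluster levels depend on the window. Except for pooled calls, each alternative averages only the genes that pass the filter of CpGs and calls under it, so the sets of genes may differ. In B and T cells, windows of 1000 bp gave 48.3 and 47.3% for alpha promoters, 64.2 and 63.9% for beta and 51.2 and 48.7% for gamma; windows of 250 bp gave 42.3 and 40.9% for alpha, 41.3 and 41.9% for beta and 32.7 and 29.6% for gamma. Upstream alone the values were 48.1 and 45.7% for alpha, 43.9 and 43.4% for beta and 39.2 and 35.1% for gamma, so alpha was then above beta, as it was in B cells with windows of 250 bp. Pooling calls over members gave 41.9 and 40.4% for alpha promoters, 50.5% for beta in T cells and 35.7 and 32.4% for gamma. With at least 40 calls the beta mean in T cells was 52.8%. At first exons, the part beyond 500 bp gave 67.8 and 67.3% for alpha, 76.2 and 75.5% for beta and 74.8 and 72.8% for gamma, the most upstream transcript 71.8 and 70.96% for beta, pooled calls 62.7 and 60.5% for gamma, and the mean of CpG fractions 61.4% for alpha in B cells. The median SD of member promoters rose to 7.84 and 7.46 points upstream alone, where calls were fewer. Leaving out 1 of 8 libraries cannot move their mean by as much as their SD, so those fits were no check on cluster levels. No paired analysis was possible because each library has a replicate number of its own, shared by no other group.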
